A study of Homo sapiens with 4 samples.

Results

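Genes of the microRNA machinery were examined in the HNRNPC and PABPC4 peak lists of MDA-MB-231, a human breast cancer cell line. The 10 genes were chosen by name and matched by gene ID: DROSHA, DGCR8, XPO5, DICER1, AGO1, AGO2, AGO3, TNRC6A, TNRC6B and TNRC6C, out of 19202 protein-coding genes with an annotated 3′ UTR. They held 30 of 9107 HNRNPC peak positions and 119 of 63507 PABPC4 peak positions, and none of these positions was listed under more than 1 gene ID. The HNRNPC samples (2) came from cross-linking and immunoprecipitation with an antibody to endogenous HNRNPC. The PABPC4 samples (2) came from PAPERCLIP, in which RNA bound by a poly(A)-binding protein, here endogenous PABPC4, is primed at its poly(A) tail so that the 3′ edge of a peak marks an mRNA end. All 4 samples were cells in standard culture, cross-linked at 254 nm with 400 mJ per square centimetre, with no other treatment, knockdown or control immunoprecipitation among them. The tags of both samples of a protein were pooled into 1 list before peaks were called. No value therefore has a spread between replicates, no test between groups was possible, and the intervals given are 95% Wilson intervals for counting error only. Peak height is the number of unique tags at the summit, and its lowest value was 3 tags in both lists.

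MicroRNAs are cut from nuclear primary transcripts by DROSHA with its partner DGCR8, carried to the cytoplasm by XPO5 and cut again by DICER1. The mature strand is loaded into an Argonaute protein (AGO1, AGO2, AGO3), which binds matching sites in mRNA 3′ UTRs through the seed of the microRNA and recruits a TNRC6 scaffold protein to repress the message. Where an mRNA ends early in its 3′ UTR, by alternative polyadenylation, sites beyond that end are not carried, and this holds for the mRNAs of the machinery itself. HNRNPC is a mostly nuclear protein that prefers runs of U.

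The members' 3′ UTRs were long, with a median of 4124 nt against 1094 nt over all genes. AGO3 (16755 nt), TNRC6B (12567 nt), AGO2 (11888 nt) and AGO1 (10925 nt) were above 5000 nt. The shortest were those of DROSHA (938 nt), XPO5 (1534 nt) and DGCR8 (1764 nt). A PABPC4 peak with its centre in an annotated 3′ UTR was taken as an end unless an A-rich stretch (a run of 6 A, or at least 7 A among 10 bases) lay in the next 50 nt of the genome, since the primer can also anneal to such stretches. A peak within 50 nt of an annotated transcript end was kept in any case. Of 42 PABPC4 peaks in the members' 3′ UTRs, 28 were kept as ends.

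The sequences just upstream of the ends are shown first, because they separate ends with a canonical poly(A) signal from ends without one. Each is hg38 sequence written as RNA, at most 30 nt long, from the strand of the gene. Capitals mark AAUAAA or AUUAAA in the last 40 nt before the 3′ edge, and the distance in the name is that of the end from the stop codon. Each window stops at the 3′ edge of the peak, except that of TNRC6B, which starts at the hexamer. DROSHA carried AAUAAA at each of its 3 ends, and AUUAAA was present at 1 TNRC6B end.
DROSHA end at 131 nt, chr5:31401301-31401330, minus strand: ucauugaAAUAAAauacagagucaaaucgc
DROSHA end at 279 nt, chr5:31401153-31401182, minus strand: gcucuuuaaauAAUAAAauucaagaagcau
DROSHA end at 930 nt, chr5:31400502-31400531, minus strand: uucuuauuAAUAAAggcaaaacuucuuugu
TNRC6B end at 12372 nt, chr22:40335579-40335608, plus strand: AUUAAAacugagagaugauguaaugcauau

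The tallest end of most members had neither hexamer. AAUAAA or AUUAAA was found in the last 40 nt of the tallest end of 2 of 10 members, DROSHA and AGO2, against 67.1% of the tallest ends of all 9057 genes with an end. The search was repeated, by a choice made after the data had been seen, with 10 less common hexamers accepted as well, and it then found 1 in 6 of 10 members and in 78.6% of all genes. The added letters were AGUAAA plus UAUAAA plus CAUAAA plus GAUAAA plus AAUAUA plus AAUACA plus AAUAGA plus AAUGAA plus ACUAAA plus AAAAAG, read on the strand of the gene with overlaps allowed. The tallest ends of XPO5, DGCR8 and DICER1 are shown with the less common hexamer in capitals. The tallest end of TNRC6C held AAAAAG and is not shown. The tallest ends of AGO1, AGO3, TNRC6A and TNRC6B held none of the 12, and those of AGO1 and TNRC6B are shown.
XPO5 end at 1530 nt, chr6:43522338-43522367, minus strand: gcaugucAGUAAAaaucucaguuucguaca
DGCR8 end at 1760 nt, chr22:20111839-20111868, plus strand: gauugucugaacaCAUAAAgcaaacugucc
DICER1 end at 1271 nt, chr14:95089227-95089256, minus strand: uaauuuaGAUAAAcuagcucauuauuucca
AGO1 end at 6209 nt, chr1:35925787-35925816, plus strand: caagcauguaaauucuggcauucuuccugg
TNRC6B end at 9338 nt, chr22:40332550-40332579, plus strand: guugacguucacaguacuguaacgaguaac

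Several tall peaks were left out because of the genomic sequence after them, which is shown so that the stretches can be seen. Capitals mark runs of 3 or more A in the 30 nt that hold the stretch, within 50 nt downstream of the 3′ edge. The peaks were 218 tags high for TNRC6B, 167 and 120 tags for TNRC6C, 54 tags for AGO3 and 26 tags for DICER1. An A-rich stretch lay downstream of 22 of 42 PABPC4 peaks in the members' 3′ UTRs (52.4%), against 31.9% of the 18752 in all 3′ UTRs. Whether these tags came from mRNA ends or from internal priming was not tested.
TNRC6B after 543 nt, chr22:40323785-40323814, plus strand: cuAAAAAAAAAAAAAAggAAAAAAuuugug
TNRC6C after 1697 nt, chr17:78106543-78106572, plus strand: AAAAcAAAAAAAugAAAAAAAAgAAAAAga
TNRC6C after 2038 nt, chr17:78106884-78106913, plus strand: cAAAAAAAAAAAAAAAAguccugcaagacu
AGO3 after 10261 nt, chr1:36066027-36066056, plus strand: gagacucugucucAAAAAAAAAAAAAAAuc
DICER1 after 2565 nt, chr14:95087903-95087932, minus strand: AAAAAAAAAAucacucuauguugccccacu

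Every member had at least 1 PABPC4 end, against 47.2% of all 19202 genes. At least 2 ends were present in 9 of 10 members, XPO5 being the exception, against 41.1% of the 9057 genes with an end. The median was 2.5 ends per member and 1 per gene. Summed heights of the ends ran from 38 tags for XPO5 to 369 tags for AGO2, with a median of 102 tags, against 84 tags over all genes with an end. The members' 3′ UTRs were longer than those of most genes, and the part of length in these counts was not tested.

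To describe short against long 3′ UTR forms, the tags of the ends on the stop-codon side of the 3′ UTR midpoint were expressed as a percent of all end tags of the gene. This percent was 0 in 3 members, 100 in 2 and between 23.5 and 85.9 in 5. Tags on both sides of the midpoint were found in 19.7% of the 8944 genes with a value. The median was 40.4% over the members and 0% over those genes. Among the 818 genes with a 3′ UTR of at least 5000 nt the median was 71.6% (quartiles 0 and 100%), and the 4 members of that length had 46.9% (AGO1), 33.9% (AGO2), 23.5% (AGO3) and 0% (TNRC6B). The percent depends on where the gene is divided: with the end nearest the stop codon set against all other ends, the median was again 40.4%, but the values of 7 members moved out of their counting intervals, to 71.1% (DROSHA), 31.0% (DGCR8), 100% (XPO5, which has 1 end), 26.8% (DICER1), 48.5% (TNRC6A), 56.2% (TNRC6B) and 11.1% (TNRC6C). The mean length marked by the end tags was 50.6% of the 3′ UTR in the median member and 87.8% in the median gene. The members' 3′ UTRs were longer than those of most genes, and the part of 3′ UTR length in this difference was not tested.

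**Figure D1:**
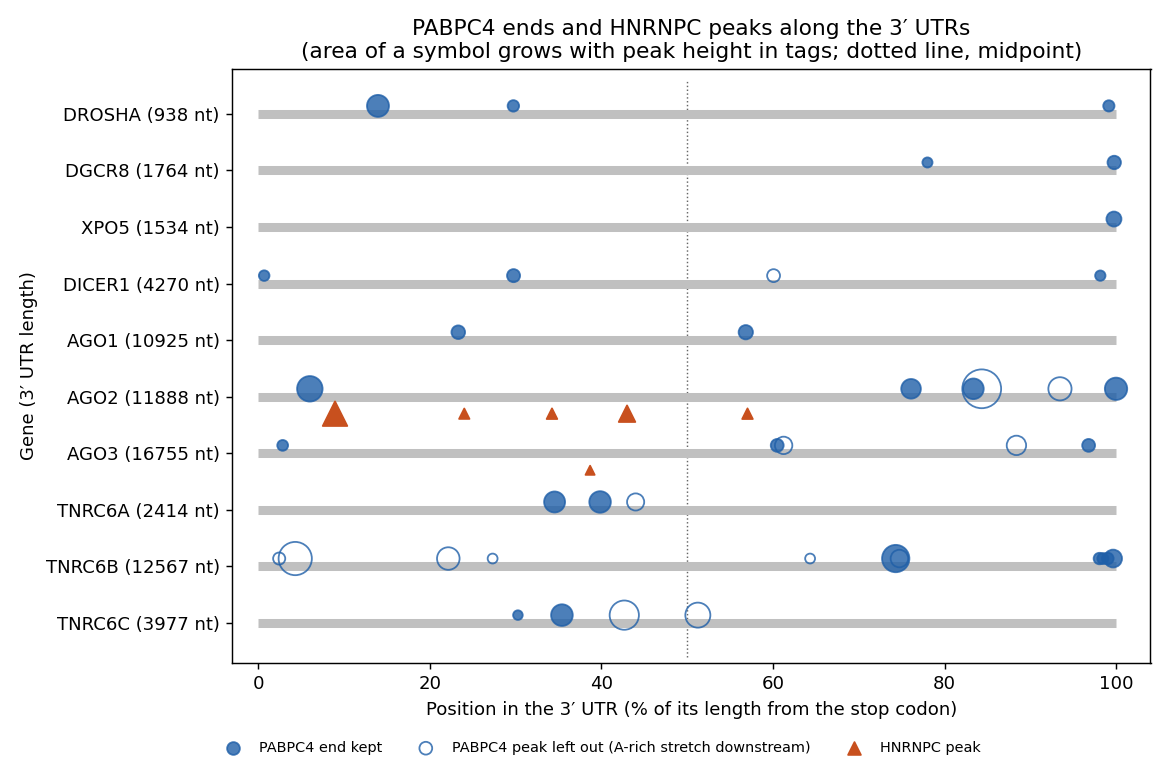
PABPC4 ends (filled circles), PABPC4 peaks left out for an A-rich stretch (open circles) and HNRNPC peaks (triangles) along the 3′ UTR of each of the 10 genes, as percent of its length from the stop codon, with symbol area growing with peak height in tags. AGO2 alone held several HNRNPC 3′ UTR peaks (5), and AGO3 held 1. The 36-tag AGO3 end in another last exon is not drawn.

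The nuclear processing genes differed in where their mRNAs ended. DROSHA, the nuclear RNase III enzyme, had ends at 131 nt (91 tags), 279 nt (19 tags) and 930 nt (18 tags) after the stop codon. The first of these held 71.1% of its tags, so 85.9% (interval 78.9 to 90.9%) lay on the stop-codon side. The 930-nt end lay 5 nt from an annotated end, and the 131-nt end lay 167 nt from the nearest one. The 930-nt end was followed by an A-rich stretch and was kept for its annotated end. Without it the DROSHA percent was 100. DGCR8, the RNA-binding partner of DROSHA, had ends at 1376 nt (13 tags) and 1760 nt (29 tags) of 1764 nt. None of its 42 tags lay on the stop-codon side (interval 0 to 8.38%).

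XPO5, the export receptor of precursor microRNAs, had 1 end, at 1530 of 1534 nt (38 tags), 4 nt from the annotated end. A second PABPC4 peak of 46 tags lay across its stop codon, with no A-rich stretch downstream. Its centre was in the coding sequence, so it was not counted as an end. With the 3′ edge deciding instead, an alternative chosen after seeing the data, XPO5 had 54.8% of tags on the stop-codon side in place of 0%.

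DICER1, the cytoplasmic RNase III enzyme, had ends at 30 nt (15 tags), 1271 nt (27 tags) and 4191 nt (14 tags) of 4270 nt. The percent on the stop-codon side was 75% (interval 62.3 to 84.5%). The ends at 30 and 1271 nt were followed by an A-rich stretch and were kept because an annotated end lay within 24 and 20 nt. Without them only the 4191-nt end was left and the percent was 0, and with the 26-tag peak at 2565 nt added it was 51.2%.

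The Argonaute genes among the members each had ends on both sides of the midpoint. AGO4, an Argonaute gene outside the members, had 1 end (30 tags) and 0% on the stop-codon side. AGO1 had ends at 2548 nt (30 tags) and 6209 nt (34 tags) of 10925 nt, neither within 1000 nt of an annotated end and neither followed by an A-rich stretch. Its percent on the stop-codon side was 46.9% (interval 35.2 to 58.9%), the same value under each alternative run for it. No other PABPC4 peak lay in the AGO1 3′ UTR, so the alternatives used the same ends and are no check on this value. AGO3 had ends at 479 nt (16 tags), 10136 nt (26 tags) and 16217 nt (26 tags) of 16755 nt, and a 36-tag end in another annotated last exon, which has no place on this scale, was kept for an annotated end 6 nt away despite an A-rich stretch, and matched sequence related to 7SL RNA. Its percent was 23.5% (interval 15 to 34.9%), and 8.38% with every 3′ UTR peak kept.

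AGO2, the Argonaute with slicer activity, had ends at 716 nt (125 tags), 9046 nt (71 tags), 9910 nt (79 tags) and 11886 nt (94 tags) of 11888 nt. The earliest of these was its tallest end and held AAUAAA or AUUAAA, as did the last. The percent on the stop-codon side was 33.9% (interval 29.2 to 38.8%). A 300-tag peak at 10025 nt and a 102-tag peak at 11109 nt were left out for A-rich stretches, and with them the percent was 16.2% (interval 13.8 to 19.0%).

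The TNRC6 genes, which encode the scaffold proteins that Argonautes recruit, lay on opposite sides of the midpoint, and the values of TNRC6B and TNRC6C depended on the A-rich rule. TNRC6A had ends at 834 nt (82 tags) and 962 nt (87 tags) of 2414 nt. The 962-nt end was followed by an A-rich stretch and was kept for an annotated end 17 nt away. The last 30 nt of the 834-nt peak themselves held runs of A. All TNRC6A tags lay on the stop-codon side, also with every peak kept, although its nearest end alone held 48.5% of the tags. TNRC6C had ends at 1204 nt (11 tags) and 1408 nt (88 tags) of 3977 nt, again all on that side, but both were followed by an A-rich stretch and were kept for an annotated end 12 and 11 nt away. With its 167-tag and 120-tag peaks added the percent was 68.9% (interval 64.1 to 73.3%). TNRC6B had 5 ends from 9338 to 12522 nt of 12567 nt, and none of their 258 tags lay on the stop-codon side (interval 0 to 1.47%). The end at 9338 nt held 145 of these tags and lay 3228 nt from an annotated end. A 55-tag peak at 9392 nt, just after it, was left out for an A-rich stretch. The end at 12522 nt (57 tags) was followed by an A-rich stretch and was kept for an annotated end 44 nt away. AAUAAA lay after the edge of this peak, within the next 30 nt, and not before it. With every peak kept, TNRC6B had 11 peaks and 51.7% (interval 47.9 to 55.5%), most of it from the 218-tag peak at 543 nt.

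**Figure D2:**
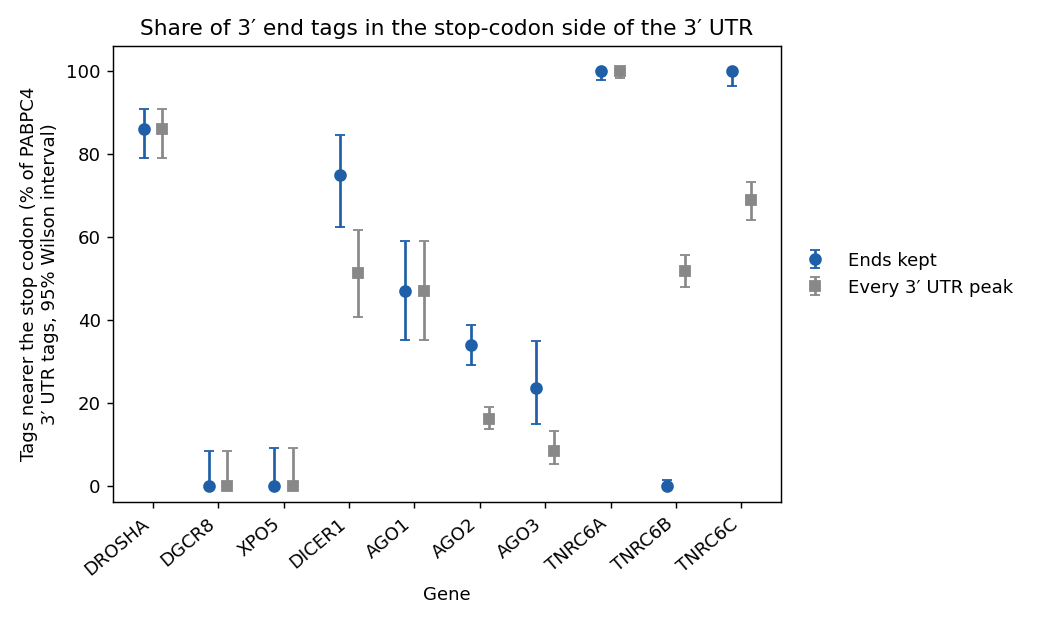
Percent of PABPC4 3′ UTR tags on the stop-codon side of the midpoint for each gene, with 95% Wilson intervals, for the ends kept (circles) and for every 3′ UTR peak (squares). TNRC6B moved from 0 to 51.7% and TNRC6C from 100 to 68.9%. DROSHA, DGCR8, XPO5 and AGO1 had the same peaks, and so the same value, under both. TNRC6A gained a peak and kept its value.

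HNRNPC peaks were found on 7 of 10 members, against 19.7% of all genes and 34.8% of the genes with a PABPC4 end. DICER1, AGO1 and TNRC6C had none. Of the 30 peaks, 23 were in introns, 6 in 3′ UTRs and 1 in coding sequence. Expression was not measured in these samples, so the part of transcript level in these counts was not tested. DROSHA and XPO5 had 1 intron peak each (7 and 11 tags), DGCR8 had 2 (71 and 11 tags), and TNRC6A and TNRC6B had 4 each (6 to 12 and 6 to 15 tags). The 71-tag DGCR8 peak stood above every peak of the other members outside AGO2, of which the tallest was 15 tags. AGO3 had 2 intron peaks (7 and 12 tags) and 1 in the 3′ UTR (9 tags).

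HNRNPC 3′ UTR peaks were found in 2 members, AGO2 and AGO3, against 1.88% of all genes. AGO2 carried 15 of the 30 peaks, with a summed height of 523 tags. Among the 3781 genes with an HNRNPC peak the median was 1 peak and 16 tags, 36 genes had more peaks than AGO2, and 18 had a larger summed height. AGO2 had 13.0 peaks per 100 kb of gene, against a median of 2.45. Its 5 peaks in the 3′ UTR were exceeded by 1 of the 361 genes with such a peak. The 3′ UTRs of AGO2 (11888 nt) and AGO3 (16755 nt) were long beside the median of 1094 nt over all genes. The part of this length in the counts of HNRNPC 3′ UTR peaks was not tested. The height expected by chance over the gene, as deposited with each peak, was 1.27 for AGO2 (percentile 98.8) and 0.14 in the median gene, and its part in the count of AGO2 peaks was not tested. At a p-value of at most 0.001, AGO2 had 7 of its 15 peaks left, and 2 of its 5 in the 3′ UTR (115 and 48 tags).

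The AGO2 3′ UTR peaks were centred at 1065 nt (115 tags), 2856 nt (14 tags), 4071 nt (15 tags), 5111 nt (48 tags) and 6780 nt (15 tags) after the stop codon. They lay between its first end, at 716 nt, and its second, at 9046 nt. The tallest spanned 958 to 1171 nt (chr8:140530873-140531086, minus strand) and began 242 nt beyond the first end. This was the only member with an HNRNPC peak within 500 nt of an end, and 1.79% of the genes with an end had one. The tallest AGO2 peak, 120 tags, was in the coding sequence. In AGO3 the 3′ UTR peak spanned 6422 to 6542 nt, and its distance to the nearest end was 3594 nt.

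**Figure D3:**
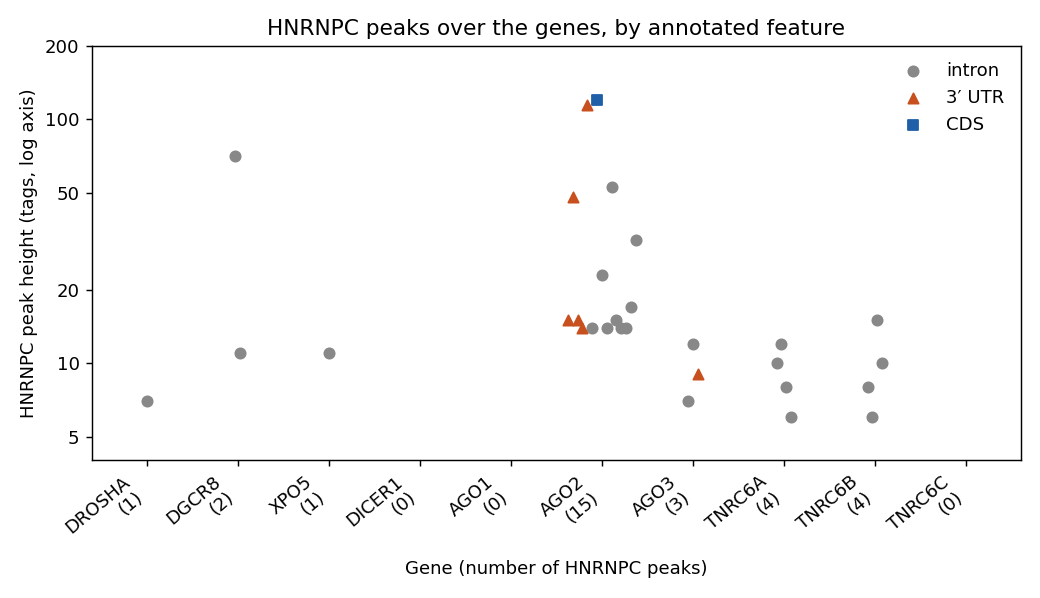
Height in tags (log axis) of each HNRNPC peak of the 10 genes, with circles for introns, triangles for 3′ UTRs and a square for coding sequence, and the number of peaks under each name. AGO2 had 15 peaks from 14 to 120 tags, and DICER1, AGO1 and TNRC6C had none.

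The AGO2 peaks were wider than those of the other members, and fewer had a U run at or just upstream of the 5′ edge. Their median width was 160 nt (91 to 323 nt), against 91 nt (62 to 148 nt) for the 15 peaks of the other members and 101 nt for all peaks. Median GC content was 61.2% against 54.2% and 55.2%. UUUUU in the 50 nt upstream of the peak or its first 10 nt was found in 2 of 15 AGO2 peaks, 8 of 15 peaks of the other members and 34.2% of all peaks. The rest of each peak was not searched for U runs. Sequence antisense to 7SL RNA, from which Alu elements derive, was found in 1 of 15, 7 of 15 and 32.8%. GUGUCA in the last 20 nt was found in 1 of 15, 3 of 15 and 23.3%. Peaks of 1 gene share its depth and sequence, so these counts are a description.

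The U runs next to 3 HNRNPC peaks of the other members are shown because they carry the sequence that HNRNPC prefers. Capitals mark runs of 5 or more U. The 71-tag DGCR8 intron peak had none in the 30 nt before it. The first sequence crosses the 5′ edge of the only HNRNPC peak in the 3′ UTR of AGO3, and its last 10 nt lie inside the peak. The others lie upstream of intron peaks. The AGO3 peak (9 tags) and the DROSHA peak (7 tags) matched sequence antisense to 7SL RNA, and the TNRC6A peak (8 tags) did not.
AGO3 3′ UTR, chr1:36062147-36062176, plus strand: uuucuaauuaaucUUUUUUUUUUUUUUUUU
DROSHA intron, chr5:31405368-31405397, minus strand: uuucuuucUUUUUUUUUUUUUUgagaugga
TNRC6A intron, chr16:24819500-24819529, plus strand: uuucuuucUUUUUUUUUUgUUUUUUUguuu

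Intron positions held 67 of the members' 119 PABPC4 peaks. An A-rich stretch followed 64.2% of them, against 70.9% of all PABPC4 intron peaks, and 71.6% against 53.4% matched 7SL RNA in the sense direction. AAUAAA or AUUAAA without an A-rich stretch was found at 2 of the 67, 1 each in TNRC6A and TNRC6B.

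Since the ends decide which sites an mRNA carries, matches to 8 microRNA seeds were located between the stop codon and the 3′ end of each 3′ UTR. The mature sequences are those of RefSeq (GRCh38.p14), and all 8 names were found there. Capitals mark the seed, bases 2 to 8, and a match was the 7-base complement of it on the strand of the gene. The 8 seeds all differ, but matches of miR-16-5p and miR-103a-3p can share bases, which occurred at 6 places.
hsa-let-7a-5p: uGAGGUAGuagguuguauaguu
hsa-miR-16-5p: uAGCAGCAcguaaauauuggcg
hsa-miR-17-5p: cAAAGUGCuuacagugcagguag
hsa-miR-21-5p: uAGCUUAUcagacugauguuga
hsa-miR-29a-3p: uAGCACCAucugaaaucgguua
hsa-miR-30a-5p: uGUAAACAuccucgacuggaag
hsa-miR-103a-3p: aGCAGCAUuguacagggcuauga
hsa-miR-221-3p: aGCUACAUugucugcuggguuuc

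There were 85 matches in the 10 3′ UTRs, in 38 of 80 pairs of a gene and a microRNA. Before the first end lay 24 matches, between the first and the last end 54, and after the last end 7. First and last ends lay at 30 and 4191 of 4270 nt in DICER1, and at 716 and 11886 of 11888 nt in AGO2. In AGO3 they lay at 479 and 16217 of 16755 nt. Most of these 3′ UTRs thus lay between the ends, and the part of length in the counts of matches was not tested. A match is a run of letters and was not tested for binding, and the levels of the microRNAs were not measured here.

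DICER1 had 10 matches, all between its end at 30 nt and its end at 4191 nt, and 5 of them were for miR-103a-3p. Both DICER1 ends before 4191 nt were followed by an A-rich stretch, and without them all 10 matches precede its only end. Of the 2010 3′ UTRs of at least 4191 nt, 26.7% held a miR-103a-3p match in that stretch. AGO3 had 14 of 15 between its ends, 8 of them for miR-17-5p, where 83.9% of the 31 3′ UTRs of that length held at least 1. AGO2 had 17 of 19 between its ends, so its 716-nt form held 2, and a miR-103a-3p match at 6798 nt was the 1 match of 85 that lay within an HNRNPC 3′ UTR peak. TNRC6A had 3 miR-30a-5p matches before its end at 834 nt, and 9.28% of 11020 3′ UTRs held at least 1 in a stretch of that length. DROSHA and DGCR8 had none of the 8 seeds, and XPO5 had 2, before its only end.

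**Figure D4:**
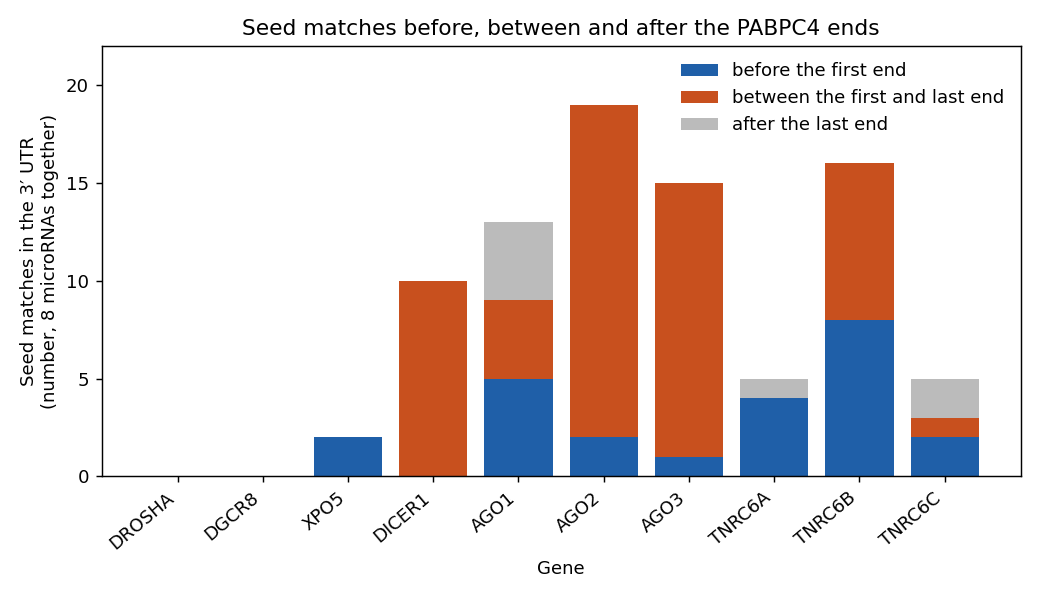
Number of seed matches of the 8 microRNAs in each 3′ UTR, stacked by place: before the first PABPC4 end, between the first and the last end, and after the last end. AGO2 had the most matches (19), and DROSHA and DGCR8 had none.

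A list of 15 other genes of the pathway (AGO4, TARBP2, PRKRA, DDX5, DDX17, SRRT, RAN, LIN28B, TUT4, TUT7, DIS3L2, MOV10, SND1, IPO8 and ZSWIM8) was described in the same way. An HNRNPC peak was found on 8 of 15, against 19.7% of all genes and 34.8% of the genes with an end. An HNRNPC 3′ UTR peak was found on 1 of 15, against 1.88%, and this was DDX17, an RNA helicase that works with DROSHA (39 tags). The next tallest HNRNPC peaks of the list were 19 tags for DIS3L2, an exonuclease that degrades uridylated RNA, and 13 tags for DDX5, the helicase related to DDX17. PABPC4 ends were found in 14 of 15, LIN28B being the exception, against 47.2% of all genes, and at least 2 ends in 4 of these 14, against 41.1%. The median percent on the stop-codon side was 0. RAN, the GTPase that drives export by XPO5, had 5 ends and 49.7% (interval 45.2 to 54.2%), and 3 genes followed with 2 ends each. Of these, DDX5 had 96.0% (interval 94.8 to 97.0%), while PRKRA and TUT4 had 0%, with none of 91 and none of 126 tags. None of the 15 had an HNRNPC peak within 500 nt of an end.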

How the data were processed

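The authors' samples were 2 HNRNPC CLIP and 2 PABPC4 PAPERCLIP libraries. Per the methods and the submitters' processing notes, HNRNPC reads were collapsed by molecular identifiers, trimmed with cutadapt, aligned to hg38 with BWA 0.7.17 and passed to a valley-seeking peak caller with multiple-testing correction. The processing of the PABPC4 reads was not given separately in the sources used here. The labels give irCLIP for HNRNPC, while the name of its list gives HITS-CLIP. The deposited signal was the pooled peak height in unique tags, not scaled to depth. The read depth of each library is unknown here, so heights were compared only within a list. The authors' p-values were used only as a filter.

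The members and lists were chosen with earlier results of these data known. Each position was counted once (10388 entries at 9107 positions for HNRNPC, 69778 at 63507 for PABPC4). A peak belonged to the gene of its listed gene ID, and its centre was placed in GENCODE 44 models in the order 3′ UTR, coding sequence, 5′ UTR, other exon and intron. No peak ran past a chromosome end of the reference (0 in both lists). The 3′ UTR was that of the MANE or canonical transcript, extended to the last annotated end of the same last exon, and positions are counted from the first base after the stop codon. Alu-type sequence was found with blastn 2.17.0 against 7SL RNA (E-value 1e-05, 100 nt on each side). Other steps used Python 3.11.15, pandas 2.3.3, numpy 2.4.6 and pysam 0.24.0. The count of tags on each side of the midpoint was tested on simulated data, and 200 of 200 genes were recovered. All 10 members were named, with values for at most 3 pathway genes of the tallest HNRNPC peak and 3 of the most ends. Since 3 genes tied after the first of these, 1 more was given. AGO4, the Argonaute gene of the pathway list, was given values as well. Alternatives covered the A-rich rule, peak height, p-value, merging, midpoint, signal window and distance.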

Additional observations from a re-analysis of the deposited data

Results flagged for a closer look

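The heights of PABPC4 peaks outside the 3′ UTRs did not enter the ends described above, apart from the alternative for XPO5, and in every member the tallest such peak was above the 3 tags that a count of 0 allows. These were 194 tags in the coding sequence of TNRC6A, 82 tags in another exon of DGCR8 and 69 tags in another exon of XPO5. In introns they were 176 tags for DROSHA, 140 tags for AGO2, 118 tags for TNRC6B, 90 tags for AGO3, 69 tags for DICER1, 48 tags for TNRC6C and 46 tags for AGO1. A peak list holds only called peaks, so such a signal was certain for any gene with a peak there. These peaks of TNRC6A, DROSHA, AGO2, DGCR8, XPO5 and TNRC6C were followed by an A-rich stretch.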

How the results depend on the processing

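Of 32 alternatives for the 6 counts and medians, 25 left the value within 1.5 times of the count or within its counting interval. For the median percent, this interval was taken from the end tags of all members pooled. It does not measure the spread of a median over genes. Counting every listed HNRNPC entry could not change the count, because each member position was listed once. The number of members with at least 2 ends, 9 in the main setting, ran from 6 to 10. The fall to 6 is among the 25, since it is within 1.5 times. With every 3′ UTR peak kept, the median percent of tags on the stop-codon side was 49.0%, and the count of tallest ends with AAUAAA or AUUAAA was 1. With every A-rich peak left out, annotated ends included, the median was 23.5%, and TNRC6C had no end left. Chosen after seeing the data, placing peaks by their 3′ edge gave a median of 50.8%, and 10 less common hexamers gave a count of 6. A p-value of at most 0.001 gave 18 HNRNPC peaks over the members. Within 100 nt of an end the count of members with an HNRNPC peak was 0. Leaving out HNRNPC peaks with GUGUCA in their last 20 nt, also chosen after seeing the data, gave 26 peaks and left both counts of members as they were. Of 79 values of single members, 64 stayed within their counting interval. The end nearest the stop codon set against all others moved 7 of the other 15, among them XPO5 from 0 to 100%, TNRC6C from 100 to 11.1%, TNRC6B from 0 to 56.2% and DICER1 from 75 to 26.8%. Keeping every 3′ UTR peak moved 5, leaving out every A-rich peak moved 2, and the 3′ edge moved 1. The p-value filter, the rule for low ends, merging and the midpoint of the MANE or canonical 3′ UTR gave every member its main value. Values from these alternatives are counted in the 64 and are no check on the main ones. The counts and medians of the ends under the same alternatives are among the 25 and are no check either. TNRC6C had no value with every A-rich peak left out, so it is not in the 79 for that alternative.

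No paired analysis was possible because each protein had 1 list made from its pooled samples, with no columns for replicates, and for the same reason no replicate was left out. There was no control immunoprecipitation and no expression measurement, and a gene without peaks is not shown to lack binding. Small heights limit several values: XPO5, DGCR8, DICER1 and AGO1 had 38 to 64 end tags each. Motif and seed searches report letters only.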
